A study of Mus musculus with 2 samples.

Results

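The nuclear-encoded subunits of the mitochondrial respiratory chain and ATP synthase were read in single cells of whole kidneys from mice at postnatal day 2. Members were all genes listed for both libraries whose symbol begins with the family names of these subunits (Nduf a, b, c, s and v; Sdh a to d; Uqcr; Cox 4i, 5, 6, 7a, 7b, 7c and 8; Atp5), without assembly factors and pseudogenes named as such. This gave 80 of the 8930 shared genes, of which 38 belong to complex I, 4 to complex II, 8 to complex III, 14 to complex IV and 16 to complex V. One further Atp5 symbol was listed for 1 library only and was left out. A few members carry the family name without being plain subunits. Ndufa4 is now placed in complex IV, Ndufa4l2 is its paralogue, Cox7a2l helps to join complexes into supercomplexes, Ndufab1 is also the mitochondrial acyl carrier protein, and Atp5sl is an assembly protein. Each was counted in the complex of its family name, so all values for complex I include Ndufa4 and Ndufa4l2. Many of these short genes have processed pseudogenes, so reads that fit both copies make their counts uncertain.

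The study compared C57BL/6J control kidney with kidney of C57BL/6J mice exposed to maternal diabetes (DM_Exp). Each group was 1 library made from 1 kidney, described as male, of pooled cells; how the diabetes was induced is not stated in the labels. Cells were dissociated with trypsin, frozen, and captured with a 10x Chromium 3′ v2 kit, which counts unique molecular identifiers (UMIs) near the 3′ end of polyadenylated RNA. The control library held 9071 cells and the exposed library 5494 cells, with 39200142 and 28213601 UMIs in the shared genes and medians of 3523 and 4346 UMIs per cell. The libraries shared 14 cell barcodes. With 1 library per group there is no test of exposure: animal, dissociation, capture and exposure cannot be told apart, and all intervals below are exact 95% intervals for counting error only.

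The respiratory chain passes electrons from NADH (complex I) and succinate (complex II) through complex III to complex IV, where oxygen is reduced, and the proton gradient this builds drives ATP synthase (complex V). All complexes but complex II combine subunits encoded in the nucleus with subunits encoded in mitochondrial DNA. In the kidney, salt-transporting tubules are rich in mitochondria, whereas progenitors rely more on glycolysis.

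The authors' 10 clusters per library were matched between libraries by marker genes, giving 9 classes present in both with at least 100 cells each. They were nephrogenic-like cells (nephron progenitor and differentiating nephron markers), stroma-like, endothelium-like, podocyte-like, macrophage-like (with neutrophil markers), distal nephron-like (loop of Henle, distal tubule and intercalated markers) and proximal tubule-like cells, and mitochondria-rich clusters with distal or with proximal tubule markers. A mostly mitochondrial cluster of each library, with 96.6% and 97.5% mitochondrial UMIs, was not named. Collecting duct cells had no cluster of their own. In both libraries most cells led by their markers lay in the nephrogenic cluster, whose leading genes in the control included Aqp2 and Fxyd4. Such cells made up 13.6% of the control and 24.1% of the exposed distal cluster. Mitochondrially encoded transcripts made up 16.3% of control and 11.7% of exposed UMIs, and 17.0% and 12.6% of cells held over 25% of them. Because these transcripts enter the denominator of CPM (UMIs of a gene scaled to the same total in every group of cells), levels over non-mitochondrial UMIs only (non-mitochondrial CPM) are given beside the main summed ratios.

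Nuclear control of these genes is commonly described through NRF1, ETS-family and YY1 sites near their starts, so the starts of 3 members that were lower in the exposed distal cluster are shown. They were taken after their values were seen, from members whose upstream bases hold a motif and lie almost wholly outside annotated exons. The 250 bases before the RefSeq start (GRCm38.p6) are printed 5′ to 3′ on the gene's strand, with GCATGCGC (the core of the NRF1 motif) and CCGGAAG (ETS), or their reverse complements, in capitals. The windows are chr10:80406822-80407071 for Uqcr11, chr9:44920743-44920992 for Atp5l and chr4:40279422-40279671 for Ndufb6, all on the minus strand.
Uqcr11: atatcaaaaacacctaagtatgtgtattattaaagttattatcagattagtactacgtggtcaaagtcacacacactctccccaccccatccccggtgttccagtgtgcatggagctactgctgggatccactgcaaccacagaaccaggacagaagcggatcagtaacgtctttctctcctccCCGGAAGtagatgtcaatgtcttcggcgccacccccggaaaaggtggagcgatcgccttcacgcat
Atp5l: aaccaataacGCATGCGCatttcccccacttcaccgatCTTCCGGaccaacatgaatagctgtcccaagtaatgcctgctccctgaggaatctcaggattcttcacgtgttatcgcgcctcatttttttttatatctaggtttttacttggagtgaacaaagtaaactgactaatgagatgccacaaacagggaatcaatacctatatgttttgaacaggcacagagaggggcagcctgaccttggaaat
Ndufb6: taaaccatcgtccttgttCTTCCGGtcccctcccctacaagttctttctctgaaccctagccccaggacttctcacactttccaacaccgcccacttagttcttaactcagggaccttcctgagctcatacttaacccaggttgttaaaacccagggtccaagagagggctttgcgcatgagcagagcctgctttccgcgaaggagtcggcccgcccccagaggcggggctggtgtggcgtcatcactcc
Uqcr11, a small subunit of complex III, and Ndufb6, an accessory subunit of complex I, each hold 1 ETS match here, and Atp5l, subunit g of ATP synthase, holds an NRF1 core and an ETS match. RefSeq windows of 300 bases (250 before and 50 after the start) were found for 67 of the 80 members. The NRF1 core stood in 10 of them (14.9%), against 5.59% of the 6797 windows of measured genes and 2.8% of all 27025 windows, on either strand. Uqcr11 was among these 10, with a match that the 250 bases printed above do not hold in full. The ETS letters stood in 15 (22.4%), against 18.2% of measured genes and 9.12% of all windows. The YY1 letters AAGATGGCG stood in 7 (10.4%), against 3.47% and 1.49%. The letters ACGTG or GCGTG, the core of the hypoxia response element, stood in 42 (62.7%), close to the 64.5% of measured genes. These are matches of letters, not measured sites.

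Across cell classes, the members together were highest in the distal nephron cluster and next in the proximal tubule cluster of both libraries. In the control library they summed to 83833 CPM in the distal and 63020 CPM in the proximal cluster, against 35303 CPM in nephrogenic, 34696 in podocyte, 30424 in stroma, 29241 in endothelium and 21499 in macrophage cells. The exposed library gave 70242 CPM in the distal and 57901 CPM in the proximal cluster, 32501 in nephrogenic, 32311 in podocyte, 29348 in stroma, 29234 in endothelium and 19787 in macrophage cells. The order of these classes was thus the same in both, although nephrogenic and podocyte cells lay close together, as did stroma and endothelium. The distal cluster stood 2.38-fold above the nephrogenic one in the control and 2.16-fold in the exposed library, and the proximal cluster 1.79-fold and 1.78-fold. Cell by cell, members took a median of 11.2% of non-mitochondrial UMIs in control distal cells (5th to 95th percentile 6.69% to 16.1%) and 8.63% in exposed distal cells (4.31% to 13.0%). In nephrogenic cells the medians were 3.52% and 3.30%, with 6.05% and 4.93% at the 95th percentile. In proximal cells they were 7.31% and 6.91%.

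**Figure D1:**
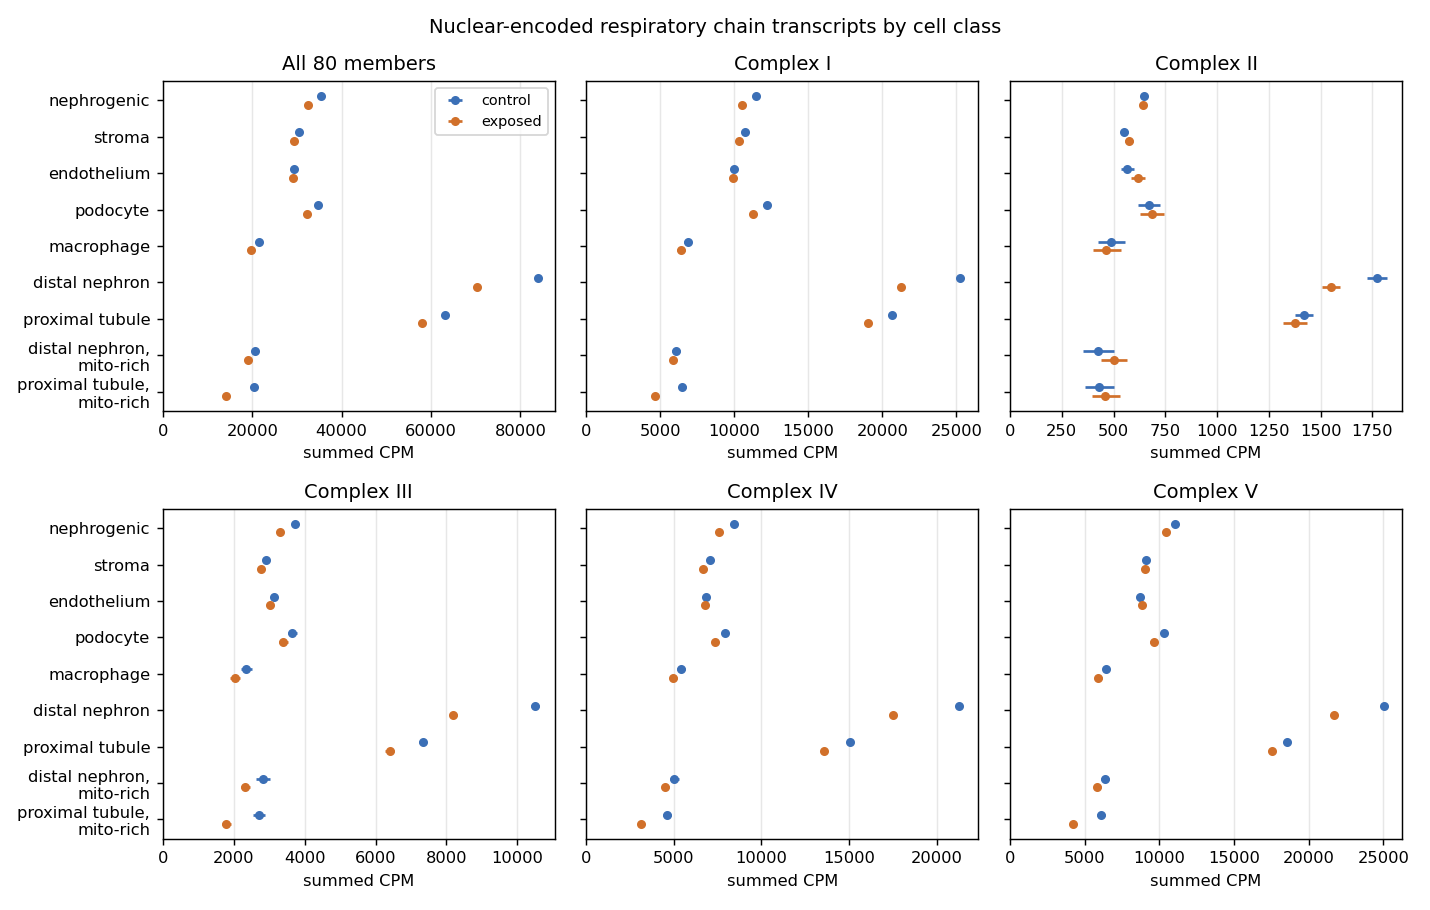
Summed CPM of all members and of each complex (x axes, each from 0) in 9 cell classes, for the control (blue) and exposed (orange) library; bars are exact 95% counting intervals. The distal nephron cluster is highest in every panel, at 83833 and 70242 CPM for all members.

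Nearly every member was higher in the distal and in the proximal cluster than in nephrogenic cells. Not every member was highest in the distal cluster, though. By CPM, Ndufa6, Ndufb4, Ndufv3, Ndufb8 and Ndufa2 were highest in the proximal cluster of both libraries. In the exposed library only, so were Ndufb6, Ndufs6, Sdhc, Atp5d and Ndufb7. Ndufa7 and Cox7a2l were highest in podocytes of both libraries. In the control library 76 of 80 members were higher in distal than in nephrogenic cells, where 39.2% of all genes tested were, and 60 members were over 2-fold higher (8.17% of all genes). In the exposed library 77 members were higher (49.6% of all genes) and 47 over 2-fold (10.4%). For the proximal cluster, 75 members were higher in the control (40.9% of all genes) and 76 in the exposed library (43.6%). The members that were not higher in distal cells were Ndufa4l2, Cox4i2 and Atp5g2 in both libraries and Cox7a2l in the control. By non-mitochondrial CPM 78 members were higher in each library (52.4% and 58% of all genes), and only Ndufa4l2 and Cox4i2 of the 80 were not. Each of these 4 is, or resembles, an alternative form of another subunit.

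The paralogues differed in where they were detected. Counts from the 3′ end do not rank genes by level, so each is compared with itself across classes. Ndufa4l2 (chr10:127509274-127517154), a hypoxia-inducible paralogue of Ndufa4, was at 246 CPM in control and 282 CPM in exposed stroma, with 1970 and 1724 UMIs. Its median over the 9 classes was 2.03 and 2.14 CPM, and endothelium held 6.68 and 4.65 CPM. Macrophage cells had no UMI of it, where 3 UMIs would be 6.51 CPM in the control and 7.34 CPM in the exposed library. Cox4i2 (chr2:152753916-152765039), the hypoxia-responsive form of subunit 4 of cytochrome c oxidase, was also highest in stroma, at 41.2 and 44.8 CPM, against 8.79 and 6.91 CPM in nephrogenic cells. The general form Cox4i1 was instead highest in the distal cluster, at 3290 and 2915 CPM, against 1183 and 1215 CPM in stroma. Cox6b2, known as the testis form of subunit 6b, was highest in stroma, at 107 and 102 CPM.

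Stroma cells were split by whether stroma or mural markers (pericyte, smooth muscle and renin cell) gave more UMIs, a split chosen after seeing the data. Of the mural-marker cells, 60 control and 31 exposed cells lay within 2 UMIs of the stroma list. Ndufa4l2 was at 884 CPM in the 261 control and 953 CPM in the 190 exposed mural-marker cells, against 169 and 186 CPM in the 2357 and 1405 stroma-marker cells. Cox4i2 showed the same order, with 212 and 206 CPM in mural-marker cells against 21.3 and 22.1 CPM. Cox6b2 did not, with 71.5 and 53.2 CPM against 111 and 109 CPM. In both libraries the 2 hypoxia-related paralogues were thus higher per UMI in mural-marker cells, and Cox6b2 was lower there. The mural-marker cells were few, so stroma-marker cells still held more of the Ndufa4l2 UMIs, 1194 against 705 in the control and 994 against 699 in the exposed library. Ratios of exposed to control in mural-marker cells were 1.08 (0.970 to 1.199) for Ndufa4l2 and 0.972 (0.775 to 1.22) for Cox4i2, intervals that include 1.

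The 3 genes for the c-ring of ATP synthase encode the same mature protein and differed across classes. Atp5g1 was at 2951 and 2183 CPM in distal cells against 806 and 654 CPM in nephrogenic cells, and Atp5g3 at 1778 and 1433 CPM against 636 and 571 CPM. Atp5g2 was at 1189 and 1348 CPM in distal cells and 1401 and 1401 CPM in nephrogenic cells. By non-mitochondrial CPM the order of these classes turned, with Atp5g2 at 1605 and 1635 in distal against 1543 and 1494 in nephrogenic cells. Under either denominator its distal and nephrogenic levels lay closer together than those of Atp5g1, at 3982 and 2647 against 888 and 697 non-mitochondrial CPM. Cox7a1 (chr7:30184171-30186030), the heart and muscle form of subunit 7a, was highest in distal cells, at 45.2 and 28.6 CPM, and next in proximal cells, at 36.9 and 22.9 CPM, but held 8 and 2 UMIs in all stroma cells.

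**Figure D2:**
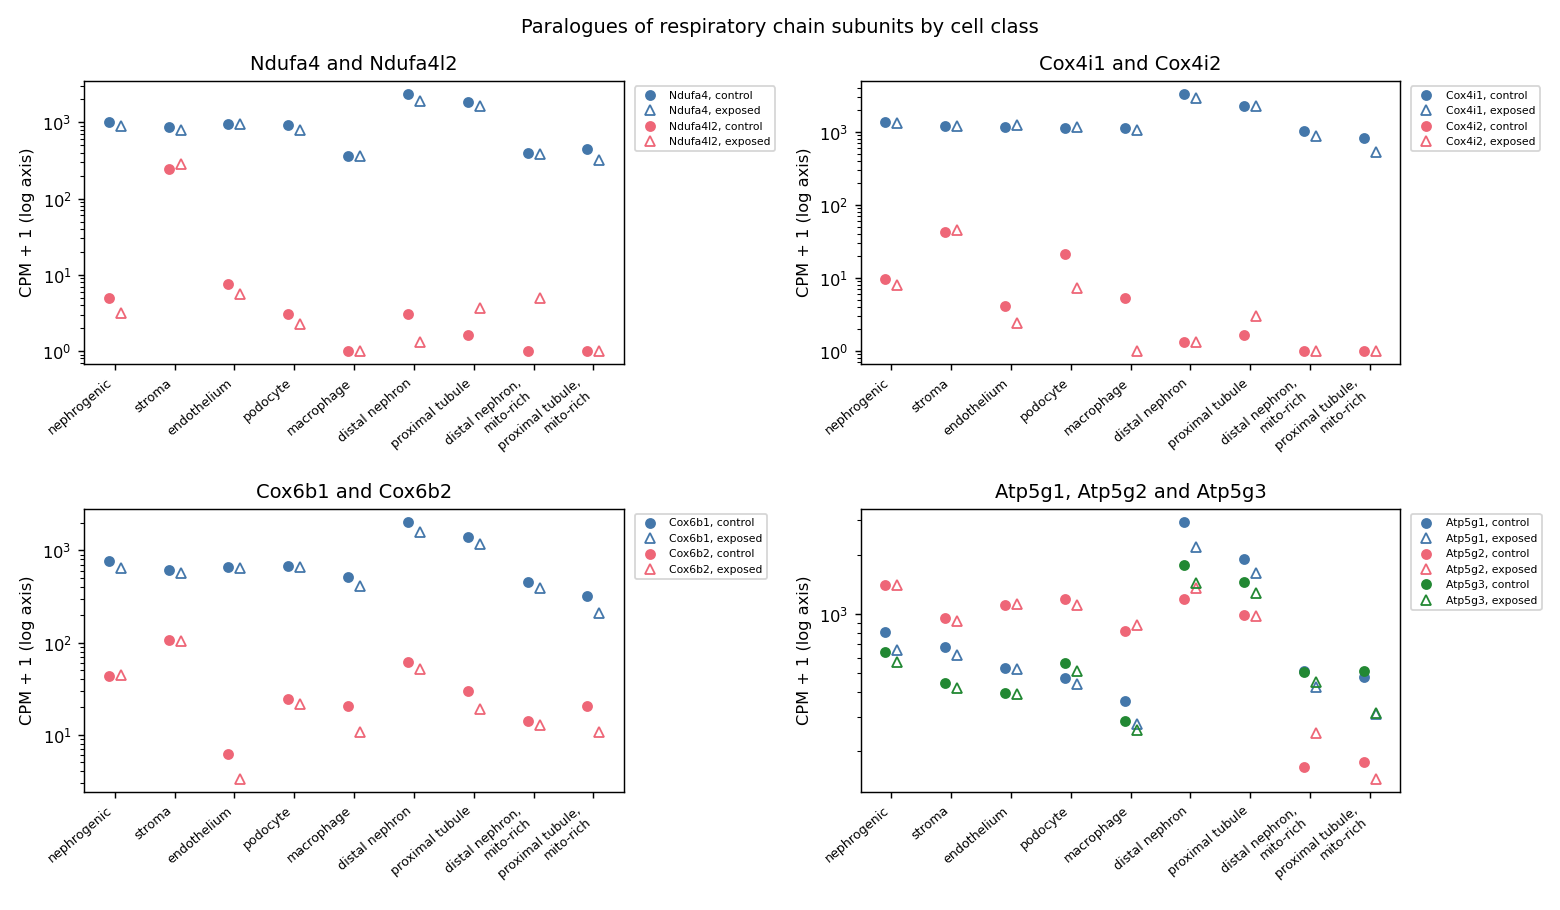
CPM plus 1 (log axis) of paralogous members in 9 cell classes; filled circles are the control and open triangles the exposed library. Ndufa4l2 and Cox4i2 peak in stroma, at 246 and 41.2 CPM in the control, while Atp5g2 differs less between distal and nephrogenic cells than Atp5g1 does.

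Between the libraries, the members together were lower in the exposed one by a few percent over all cells. Their summed level was 37481 CPM in the control and 35684 CPM in the exposed library, which is 0.952 (0.9496 to 0.9545), and 0.903 by non-mitochondrial CPM. Of the 80 members, 55 were lower, where 34.5% of all genes tested were, with a median log2 ratio of CPM + 10 of -0.07 against 0.04 for all genes. None was lower by over 20% on that scale (0.795% of all genes) and none higher by over 25% (0.728%). Mitochondrial transcripts were lower by more, at 0.719 of the control level, and all 13 of those genes were lower.

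By complex, over all cells, the ratio was 0.947 (0.943 to 0.951) for complex I, 0.914 (0.907 to 0.921) for complex III, 0.937 (0.932 to 0.942) for complex IV and 0.978 (0.974 to 0.983) for complex V. Complex II, succinate dehydrogenase, was at 729 CPM in the control and 745 CPM in the exposed library, 1.02 (1.00 to 1.04), but at 0.970 by non-mitochondrial CPM, so its direction depended on the denominator. Of its subunits Sdhd, a membrane anchor, went from 188 to 212 CPM, and Sdhb, the iron-sulfur subunit, from 297 to 271 CPM. Sdha, the flavoprotein that oxidises succinate, went from 145 to 157 CPM.

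Complex III split by subunit. Of its 5 small accessory subunits, the 4 genes Uqcrb, Uqcr11, Uqcrq and Uqcr10, grouped after their values were seen, were lower, from 727 to 607, 521 to 435, 583 to 489 and 586 to 495 CPM. Their ratios lay between 0.835 and 0.844. Uqcrh, the fifth, was at 855 and 862 CPM (1.008, 0.991 to 1.02). Uqcrc2, a core subunit, was higher, from 230 to 260 CPM (1.13, 1.09 to 1.16). The Rieske iron-sulfur protein Uqcrfs1 went from 305 to 316 CPM, but its ratio falls below 1 by non-mitochondrial CPM. Uqcrc1, the other core subunit, was at 290 and 282 CPM. In the distal cluster Uqcrc2 was at 527 and 521 CPM, Uqcrfs1 at 866 and 743 CPM and Uqcrc1 at 772 and 611 CPM. The members of one complex thus differed between the libraries by unequal amounts, among the small subunits as well as the core.

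In complex I, counted by family name and so with Ndufa4 and Ndufa4l2, 28 of 38 members were lower, with log2 ratios from -0.19 to 0.21. Ndufs1, which carries iron-sulfur clusters, was at 60.4 and 58.3 CPM and Ndufv1, the NADH-binding flavoprotein, at 194 and 196 CPM. Ndufv3, an accessory subunit, was the lowest, at 203 and 177 CPM (0.870, 0.839 to 0.901), and Ndufa4l2 the highest, at 52.8 and 62.7 CPM. In complex IV, Cox7a1 was the lowest, at 9.005 and 5.67 CPM (0.630, 0.519 to 0.761; log2 ratio -0.28, since the added 10 CPM shrinks differences of genes this low), and Cox7a2l the highest, at 292 and 337 CPM (1.15, 1.12 to 1.19). In complex V, Atp5g1 went from 949 to 822 CPM and Atp5f1, the stator b subunit, from 651 to 724 CPM. The catalytic subunits Atp5b and Atp5a1 were at 1094 and 1132 CPM and at 733 and 764 CPM.

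**Figure D3:**
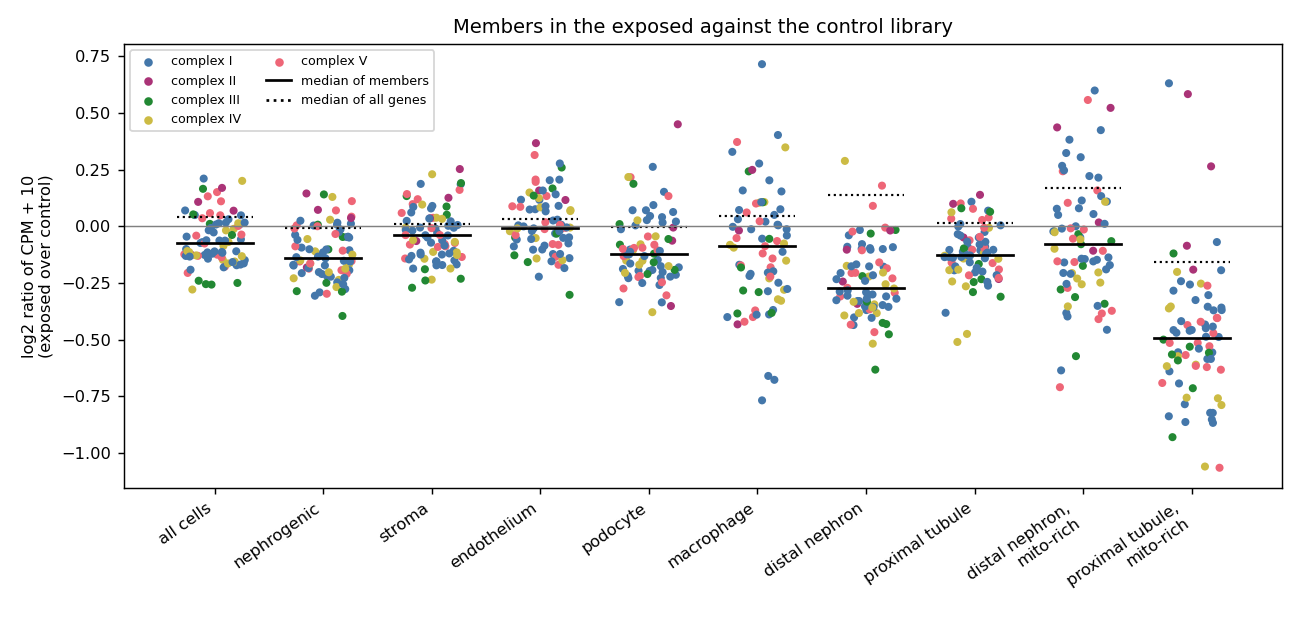
Log2 ratio of CPM + 10, exposed over control (y axis), of each member with at least 50 UMIs over both libraries, in all cells and 9 classes; colours are complexes, solid lines the median of members and dotted lines the median of all genes. The median of members was -0.27 in the distal cluster, where that of all genes was 0.14.

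Transcript length moved with these differences. Over the 80 members, Spearman's rho between the longest coding transcript in GENCODE and the log2 ratio was 0.475 across genes, which are not independent replicates and share both libraries. Over 8514 genes it was -0.194. Of the 40 shorter members 35 were lower, with a median log2 ratio of -0.12, and of the 40 longer members 20, with a median of -0.00. In the proximal cluster rho was 0.476, and in the distal cluster 0.289. Many small accessory subunits have short transcripts, so role and length cannot be told apart here.

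**Figure D4:**
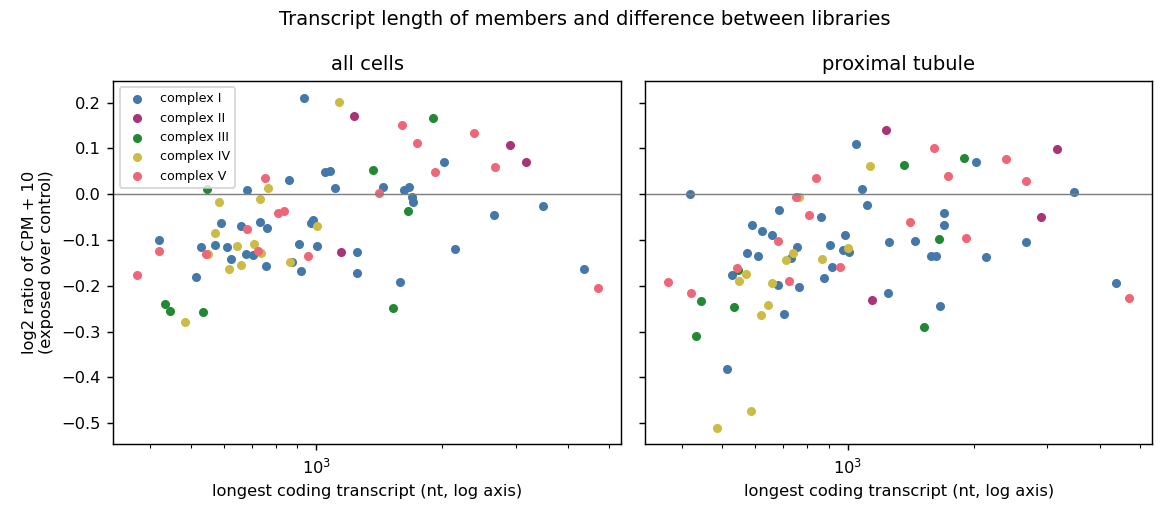
Log2 ratio of CPM + 10, exposed over control (y axis), against the longest coding transcript in nucleotides (log x axis), one point per member, for all cells and the proximal tubule cluster. Short members lie mostly below 0, with 35 of the 40 shorter ones lower over all cells.

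The distal nephron cluster differed most among the clusters that were not mitochondria-rich. Its members were at 0.838 (0.833 to 0.843) of the control level, and at 0.753 by non-mitochondrial CPM. Of the 78 members that passed 50 UMIs, 75 were lower, where 27% of all genes were, and 27 were lower by over 20% (3.37% of all genes). The complexes lay at 0.843 (I), 0.875 (II), 0.780 (III), 0.823 (IV) and 0.867 (V). Uqcrq (chr11:53427922-53430831) was the lowest on the log2 scale of CPM + 10, at 1874 and 1206 CPM (0.644, 0.617 to 0.671), followed by Cox7a1, at 45.2 and 28.6 CPM (0.632, 0.477 to 0.834). Uqcr11, at 1443 and 1035 CPM, and Atp5k, subunit e of ATP synthase, at 354 and 253 CPM, were named after their values were seen. The 3 members that were not lower were Cox7a2l, at 334 and 411 CPM (1.23, 1.13 to 1.34), Atp5g2 (1.13, 1.08 to 1.19) and Atp5sl, at 57.3 and 61.7 CPM. Other measures moved with this cluster. Mitochondrial UMIs were 25.9% in the control and 17.5% in the exposed cluster, ribosomal protein transcripts 75471 and 115957 CPM, immediate early genes 1979 and 4010 CPM, and median depth 5151 and 7050.5 UMIs. Their part in the result was not tested.

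The makeup of the distal cluster also differed. The 10 collecting duct markers summed to 2577 and 4641 CPM, with 1 and 0 of them at 0, and the 3 urothelium markers measured to 25.9 and 327 CPM. Cells were therefore split by the marker list with the most UMIs. Calb1 was left out of the lists for this split, and tied cells (3 control, 1 exposed) were dropped. Loop of Henle and distal tubule cells (303 control, 214 exposed) held members at 86659 and 73218 CPM, a ratio of 0.845 (0.839 to 0.851), with 72 of 78 members lower (31.4% of all genes). Collecting duct cells (68 and 90) held 73367 and 58028 CPM, 0.791 (0.780 to 0.802), with 71 of 77 lower (31.4%). Intercalated cells (127 and 69), which secrete acid or base, held 82759 and 78936 CPM, 0.954 (0.941 to 0.966), with 51 of 78 lower (36%). By non-mitochondrial CPM the ratios were 0.764, 0.699 and 0.871. The members were thus lower within each marker group, at unequal size. The collecting duct group was not alike in the libraries: its cells held a median of 29 collecting duct marker UMIs in the control, where 8 of 68 lay within 2 UMIs of another list, and 90.5 in the exposed library, where 5 of 90 did. A second rule left out cells whose collecting duct and urothelium marker UMIs exceeded their loop of Henle, distal tubule and intercalated marker UMIs. This rule kept Calb1 among the loop of Henle and distal tubule markers. It left out 34 control and 83 exposed cells. The remaining cells of the cluster gave 0.883, with 66 of 78 members lower (29.5% of all genes in these cells).

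In the nephrogenic cluster the members were at 0.921 (0.917 to 0.924) of the control level, or 0.890 by non-mitochondrial CPM, and 63 of 80 were lower (51.8% of all genes). Here too collecting duct markers differed, at 1974 and 1063 CPM, with urothelium markers at 185 and 32.9 CPM, neutrophil markers at 107 and 0.714 CPM and erythroid markers at 142 and 14.9 CPM. Mitochondrial UMIs were 9.25% and 6.17%, heat shock genes 14447 and 18225 CPM and immediate early genes 5826 and 7765 CPM. The part of these in the result was not tested, other than by the marker groups that follow. Cells led by collecting duct markers (1016 control, 433 exposed) held members at 41560 and 33956 CPM, 0.817 (0.811 to 0.823), with 74 of 78 lower (52.7% of all genes). Nephron progenitor cells (777 and 449) held 29262 and 28858 CPM, 0.986 (0.977 to 0.995), with 48 of 77 lower (50.7%). Differentiating nephron cells (1290 and 969) held 34353 and 33327 CPM, 0.970 (0.965 to 0.976), with 53 of 78 lower (49.9%). By non-mitochondrial CPM these ratios were 0.784, 0.965 and 0.951. Many of these cells were weakly assigned. Within 2 UMIs of another list lay 189 control and 114 exposed progenitor cells, and 332 and 170 differentiating cells. Among cells led by collecting duct markers 128 and 48 did, and 252 control and 112 exposed tied cells were left out. The second rule here left out cells whose collecting duct and urothelium marker UMIs exceeded their nephron progenitor and differentiating nephron marker UMIs (987 control, 419 exposed). Without them the cluster stood at 0.989, with 50 of 80 members lower (46.7% of all genes in the remaining cells). In the whole nephrogenic cluster, with these cells kept, Uqcrb was the lowest member, at 647 and 489 CPM (0.757, 0.734 to 0.780). Sdhd and Uqcrc2 were the highest there, at 178 and 198 and at 238 and 264 CPM.

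**Figure D5:**
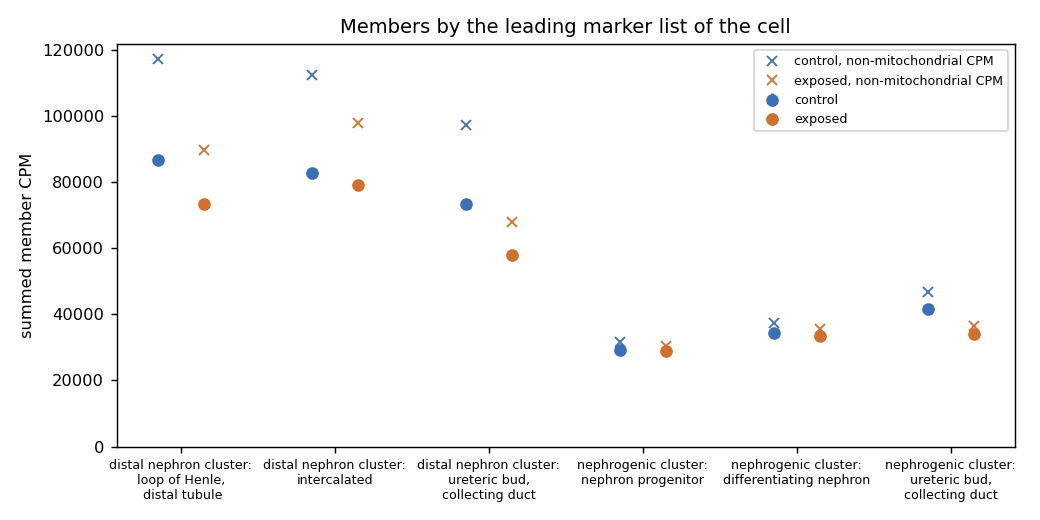
Summed member CPM (y axis, from 0) of cells grouped by leading marker list within the distal nephron and nephrogenic clusters; circles are CPM with exact 95% counting intervals, crosses non-mitochondrial CPM. Nephron progenitor cells lie together, at 29262 and 28858 CPM, while collecting duct cells lie apart in both clusters.

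In the proximal tubule cluster (471 control and 174 exposed cells) the ratio was 0.919 (0.911 to 0.926), and 0.905 by non-mitochondrial CPM. Of 78 members, 64 were lower (46.6% of all genes) and 3 by over 20% (7.05%). Complex III was at 0.873 and complex IV at 0.900, against 0.944 for complex V and 0.969 (0.919 to 1.02) for complex II. The lowest members were Cox7a1, at 36.9 and 22.9 CPM (0.622, 0.411 to 0.918), and Cox6b2, at 29.2 and 18.2 CPM. The third past 20% was Ndufa3, an accessory subunit of complex I, at 202 and 153 CPM. Sdhd was the highest, at 364 and 402 CPM (1.10, 0.998 to 1.22).

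The other classes differed less or were counted less deeply. Stroma was at 0.965 (0.959 to 0.971), or 0.944 by non-mitochondrial CPM, with 50 of 79 members lower (46% of all genes), and podocytes at 0.931 (0.916 to 0.947), or 0.917, with 56 of 75 (50.4%). Mural markers in stroma were at 2042 and 3092 CPM. The ratio was 0.967 in stroma-marker and 0.925 in mural-marker cells. Neutrophil markers in podocytes were at 665 and 0 CPM, endothelium markers at 97.5 and 13.9 CPM and stroma markers at 2506 and 3220 CPM. The part of these in the podocyte result was not tested. Macrophages were at 0.920 (0.894 to 0.948), or 0.915, with 48 of 73 (44.7%). In that cluster neutrophil markers were at 21864 and 16307 CPM, erythroid markers at 484 and 2.45 CPM and cycling genes at 224 and 543 CPM, and their part was not tested. Endothelium was at 29241 and 29234 CPM, a ratio of 1.00 (0.989 to 1.0104), with 40 of 76 (43.1%). No difference in the summed level was detectable there by CPM, whereas by non-mitochondrial CPM the ratio was 0.970 (0.959 to 0.980). Small complex III subunits were the lowest members in 2 of these classes. Uqcr10 went from 394 to 325 CPM in stroma, and Uqcr11 from 346 to 279 CPM in endothelium (0.806, 0.725 to 0.895). In podocytes and macrophages other members were lower than these subunits. Cox7a2l went from 255 to 301 CPM in stroma (1.18, 1.11 to 1.26).

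The mitochondria-rich clusters were small and shallow in nuclear transcripts. With proximal tubule markers (148 cells in each library, 60.6% and 63.8% mitochondrial UMIs) the members were at 20310 and 14212 CPM, 0.700 (0.676 to 0.724), and at 0.761 by non-mitochondrial CPM. Of 74 members 71 were lower (65.1% of all genes) and 59 by over 20% (33.1%), and the median of all genes was itself -0.16. Complex II was the exception, at 1.07 (0.861 to 1.33). Atp5k was the lowest, with 52 and 27 UMIs (0.443, 0.267 to 0.718). With distal markers (128 control and 191 exposed cells) the ratio was 0.922 (0.893 to 0.952), with 49 of 75 lower (34.3%), and 0.767 by non-mitochondrial CPM. Haemoglobin genes led the exposed one of these clusters: erythroid markers were at 3.24 CPM in the control and 14048 CPM in the exposed library. In the cluster with proximal markers they were instead at 1645 and 4.81 CPM. Their part in either result was not tested.

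Other genes of mitochondrial respiration, taken from whole lists, stood as follows over all cells. Cyc1, the cytochrome c1 subunit of complex III that the family names do not catch, and Cycs, the cytochrome c that carries electrons from complex III to complex IV, were both lower (median log2 ratio -0.09). Of 32 assembly factors measured (46 listed) 7 were lower, with a median of 0.05, of 13 citric acid cycle enzymes 3 (0.07), and of 75 mitochondrial ribosomal proteins 21 (0.04). The list of regulators of mitochondrial genes, such as Nrf1 and Tfam, held 13 symbols, of which only 8 were measured. Of these 8, 1 was lower (0.04), and none of the 3 adenine nucleotide and phosphate carriers (0.11). These stood beside the 34.5% and 0.04 of all genes given above. In the distal cluster, where 27% of all genes were lower and their median was 0.14, Cyc1 and Cycs were again lower (median -0.37), as were 11 of 13 citric acid cycle enzymes (-0.17). There 16 of 32 assembly factors (0.00), 26 of 75 mitochondrial ribosomal proteins (0.07), 3 of 8 regulators (0.11) and 2 of 3 carriers (-0.01) were lower. The 13 mitochondrial transcripts, all lower, had a median of -0.56.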

How the data were processed

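Per the submitters' processing notes, reads were processed with Cell Ranger 2.2.0 against mm10. The authors deposited UMI counts per gene and cell, with tables of UMI counts per cell, mitochondrial percent, a doublet score and cluster numbers; no source used here gives the filters they applied. A deposited log2-scale matrix was not used. The deposited counts were summed per library and cluster over the 8930 shared genes (99.4% of UMIs) and divided by their total (CPM). Clusters were matched between libraries by marker lists. Single genes were compared as log2 of CPM + 10, exposed over control, for genes that reach 50 UMIs in the libraries together, and a ratio beyond 20% lower or 25% higher marks a larger difference. Exact Poisson (levels) and conditional binomial (ratios) 95% intervals cover counting error only and are narrower than the spread between animals would be. The deposited doublet score was used only to leave out cells over 1 (584 control, 277 exposed) in an alternative. No test was run, since each group is 1 library. Named members were the extremes of each complex and class, the 6 most class-restricted members, paralogue sets and core subunits. Others are said to be chosen after their values, or complete a count or group in the text. The latter, such as Ndufa3, Atp5sl and Uqcrh, were also named after their values were seen. The members and lists were chosen with earlier results of these data known. The interval code was tested on simulated counts. Python 3.11.15, numpy 2.4.6, scipy 1.17.1, pandas 2.3.3 and matplotlib 3.10.9 were used. RefSeq and GENCODE tables gave places, starts and lengths.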

Additional observations from a re-analysis of the deposited data

How the results depend on the processing

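No paired analysis was possible because each group is 1 library with no replicate number, and for the same reason no replicate could be left out. Over all cells the summed ratio of 0.952 became 0.9029 by non-mitochondrial CPM, 0.9289 without cells over 25% mitochondrial UMIs, 0.9144 with both, 0.9486 in cells of at least 2000 UMIs, 0.9143 with the same mix of classes and 0.9229 without the mostly mitochondrial cluster. For complexes I, II, III, IV and V the values were 0.8983, 0.9699, 0.8671, 0.8885 and 0.9277 by non-mitochondrial CPM; 0.9222, 0.9948, 0.898, 0.9144 and 0.9543 without cells over 25%; 0.9077, 0.9792, 0.884, 0.9001 and 0.9394 with both; 0.9141, 0.9807, 0.8713, 0.896 and 0.9403 with the same mix; and 0.9182, 0.9914, 0.8867, 0.9082 and 0.9482 without the mostly mitochondrial cluster. Complex II thus crossed 1 in all 5 of these. Within classes, complex II in nephrogenic cells was 1.02 with cells weighted equally and 1.095 without collecting duct and urothelium marker cells, where complex V was 1.02. Complex II in podocytes was 0.9792 with equal weights and 0.9867 without cells over 25% and with the non-mitochondrial denominator, and in the mitochondria-rich distal cluster 0.9795 with that denominator. Complex V in endothelium was 0.9851 with that denominator, 0.9972 without cells over 25% and 0.9825 with both. The cause of these shifts was not tested. With at least 200 UMIs fewer members pass, and 28 of 30 were lower in the mitochondria-rich distal and 25 of 25 in the mitochondria-rich proximal cluster. In the main setting these counts were 49 of 75 and 71 of 74. The share of all genes lower at the higher cut was not taken, so these counts cannot be set against it. Why a larger share of members was lower there was not tested. The other 98 counts of members lower stayed within 1.5 times, and for the named members 583 alternatives stayed within counting error and 177 moved further. None of these was counted as a change of direction, but small differences that cross 1 were not counted as such. The non-mitochondrial denominator lowers every ratio over all cells by the same factor. Ratios just over 1 there, such as 1.012 for Ndufv1, therefore fall below 1 with it. The distal over nephrogenic ratio of 2.375 in the control was 2.908 (non-mitochondrial), 2.6 (without cells over 25%), 2.939 (both), 2.414 (equal weights), 2.363 (at least 2000 UMIs), 2.387 (without high doublet scores) and 2.606 (without collecting duct marker cells); in the exposed library 2.161 became 2.459, 2.193, 2.407, 2.181 with equal weights, 2.223 without high doublet scores and 2.326 without collecting duct marker cells. The proximal over nephrogenic ratio of 1.785 in the control became 1.911, 1.799, 1.906, 1.811, 1.807 and 1.939 in the same order without the depth filter; in the exposed library 1.781 became 1.942, 1.828 and 1.929, then 1.815 without high doublet scores and 1.802 without collecting duct marker cells. The mitochondria-rich clusters gave no value without cells over 25%. Alternatives on collecting duct cells, on both filters together and on the mostly mitochondrial cluster were chosen after seeing the data.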
